A study of Mus musculus with 28 samples.

Results

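Cells labelled as mouse splenic dendritic cells were compared between treatment arms. The first had angiotensin II (Ang II) plus 2-hydroxybenzylamine (2-HOBA). The second had Ang II plus a combination of hydralazine and hydrochlorothiazide (Hyd/HCTZ). The 10 arrays were chosen by their titles alone, 4 with 2-HOBA and 6 with Hyd/HCTZ, out of 28 arrays in all. Both groups are labelled as primary dendritic cells from the spleen of C57BL6/J wild-type mice, 3 months old, and both carried Ang II, so neither is an untreated control. The series set out to examine how oxidative stress alters dendritic cell expression. Its other arrays are 4 of wild-type cells with Ang II alone, 7 of wild-type cells with vehicle (titled as sham), 4 of NOX2 knockout cells with Ang II and 3 of NOX2 knockout cells with vehicle. The series text words the treatment as following cell isolation, while the control titles speak of sham, so it could not be settled whether the agents were given to the mice or to their isolated cells. Doses, duration and the sort or gate are not given in the sources used here. Each array is labelled as a biological replicate, and whether an array stands for 1 animal or a pool is likewise not given.

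Ang II is the effector peptide of the renin-angiotensin system, and in mice it raises blood pressure and drives NADPH oxidases to make superoxide. Oxidized lipids break down to reactive isolevuglandins, which attach to lysines, and 2-HOBA is a small amine that scavenges these products without being a blood pressure drug. Hydralazine is a vasodilator and hydrochlorothiazide a thiazide diuretic, so the pair lowers pressure by another route. Splenic dendritic cells take up and present antigen, and on activation they raise costimulatory ligands and cytokines that steer T cells.

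All levels below are the deposited log2 values, 1 gene per probe set with a single symbol, for the 10452 of 19938 genes that were above 5 on at least 3 of the 28 arrays. By level and correlation the 6 Hyd/HCTZ arrays lay at 1 end of the series. Median level over the tested genes was 5.94 ± 0.07 on the 2-HOBA arrays, against 6.30 ± 0.10 on the Hyd/HCTZ arrays (SD, n = 4 and 6). Interquartile range of the same genes was 1.74 ± 0.07 with 2-HOBA and 1.98 ± 0.03 with Hyd/HCTZ. The 2 groups did not overlap in either measure, and the two-sided exact permutation p was 0.00476 for each, the smallest that the 210 splits allow. The tested genes were partly chosen by these arrays, since 371 passed the level filter only through the Hyd/HCTZ group. This p is therefore not independent of the choice of genes. No other array of the series reached the Hyd/HCTZ medians of 6.14 to 6.44, the nearest being vehicle replicate 5 at 6.10, whose interquartile range of 1.95 lay within that of the Hyd/HCTZ arrays. Over all 35556 probe sets the order was the other way, with medians of 4.43 to 4.47 with 2-HOBA and 4.32 to 4.36 with Hyd/HCTZ. Correlation with the other arrays of the same group averaged 0.959 to 0.964 for the 2-HOBA arrays and 0.968 to 0.983 for the Hyd/HCTZ arrays, and the 2-HOBA arrays averaged 0.823 to 0.881 with the Hyd/HCTZ arrays. Arrays with Ang II alone averaged 0.916 to 0.959 with the 2-HOBA arrays and 0.788 to 0.873 with the Hyd/HCTZ arrays, and the 7 vehicle arrays averaged 0.760 to 0.957 with the 2-HOBA arrays and 0.636 to 0.897 with the Hyd/HCTZ arrays. Any difference in processing that goes with the Hyd/HCTZ arrays and the drugs themselves cannot be told apart. The vehicle array of replicate 2 read 6.34 for Cybb, the NOX2 subunit deleted in the knockout, below the knockout range of 6.41 to 7.18 and against its label. It also had the lowest median (5.47) and the narrowest interquartile range (1.23) of the 28 arrays. Its correlation with the other vehicle arrays averaged 0.753. The source of its low Cybb was not tested. This array enters here through the shared estimate of spread, and without it 5548 genes were called in place of 4631.

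**Figure D1:**
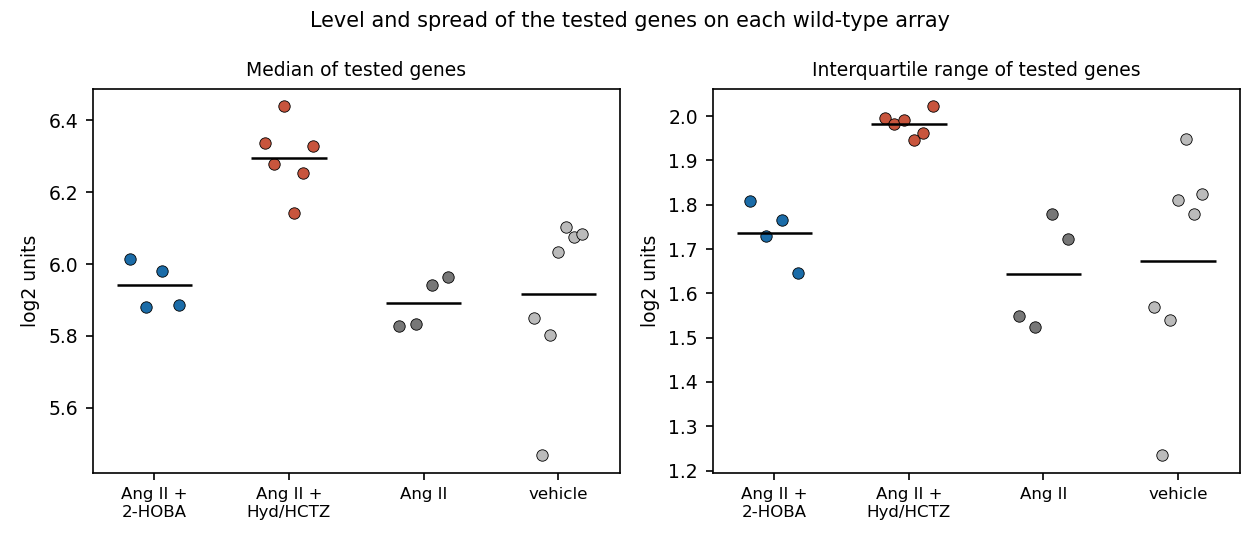
Median (left panel) and interquartile range (right panel) of the tested genes in log2 units, 1 point per wild-type array, by group. The 4 2-HOBA arrays have medians near 5.94 and ranges near 1.74, and the 6 Hyd/HCTZ arrays lie above them in both panels, near 6.30 and 1.98.

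Since the tested genes differed by a median of -0.25 between the groups, each difference is given as 2-HOBA minus Hyd/HCTZ relative to that median, with a positive value for a gene higher with 2-HOBA. By limma with Benjamini-Hochberg adjustment over the 10452 genes, 4631 (44.3%) were called at an adjusted p below 0.05, 2202 (21.1%) higher and 2429 (23.2%) lower with 2-HOBA. Quantile normalization gave 3900 calls (37.3%), 1643 (15.7%) higher and 2257 (21.6%) lower, and 3471 of them were shared in the same direction. Tested against 0 with no median removed, the split was 1016 (9.72%) higher and 3758 (36%) lower, so the share of higher calls depended on the scaling: 47.5% relative to the median, 42.1% after quantile normalization and 21.3% against 0. In 4818 genes (46.1%) the 4 and the 6 arrays did not overlap, and 2935 (28.1%) were called by both scalings in 1 direction without overlap. Changes of at least 2-fold counted 455 higher and 954 lower, and those of at least 8-fold 9 higher and 10 lower. Weakly detected genes leaned up: the median difference was 0.28 in the lowest 2091 genes by mean level and -0.14 in the highest 2091, and 0.04 and 0.01 after quantile normalization. A list is read below against 21.1% higher and 23.2% lower. In what follows, lower or higher with 2-HOBA means against Hyd/HCTZ only, and differences from Ang II alone were not tested. Of the tested genes, 371 were above 5 on enough arrays only through the Hyd/HCTZ group, and 214 of them were called lower. List counts are therefore repeated, where they differ, for members that were above 5 on at least 3 of the 18 arrays of the other 4 groups, among which 21.6% of 9977 genes were called higher and 22.1% lower.

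**Figure D2:**
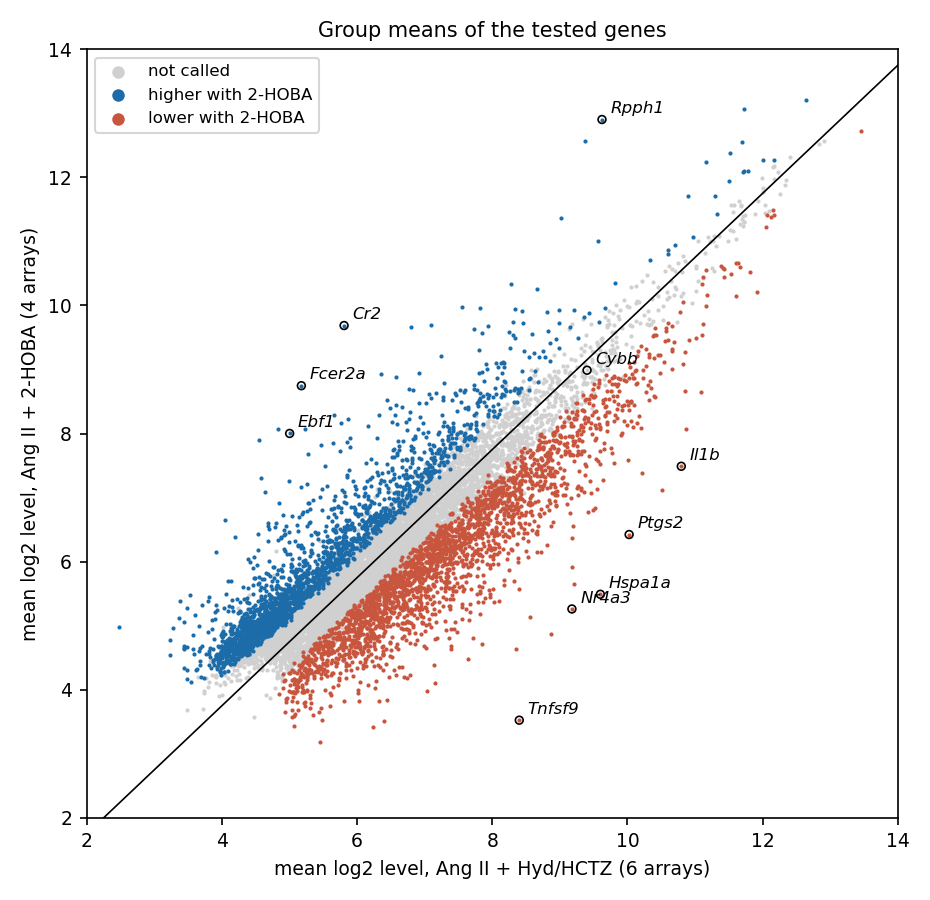
Mean log2 level of each tested gene with 2-HOBA (vertical axis, 4 arrays) against Hyd/HCTZ (horizontal axis, 6 arrays), coloured by call. The called genes lie on both sides of the line drawn at the median difference of -0.25, 2202 above it and 2429 below it.

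B cell, T cell and stromal markers were mostly higher with 2-HOBA, and markers of type 1 dendritic cells, red pulp macrophages and monocytes mostly lower. All 12 tested markers of conventional dendritic cells as a class were above 5 on every 2-HOBA and every Hyd/HCTZ array. Cd74, H2-Aa and Ciita among them are class II genes that B cells also express, so this count does not measure dendritic cell content. Of the 12, 5 were called lower and 1 higher, with a median difference of -0.37. Itgax (CD11c) differed by -1.27, Flt3, a growth factor receptor of dendritic cells, by -0.96 and Zbtb46, their lineage transcription factor, by -0.85. Haao, an enzyme of tryptophan breakdown, was 0.48 higher (adjusted p = 0.0469), but its arrays overlapped. Tested against 0, Haao gave 0.23 with an adjusted p of 0.346. Markers of cross-presenting type 1 dendritic cells were lower with 2-HOBA in 13 of 15, with a median difference of -1.28, and markers of red pulp macrophages, which recycle iron, in 12 of 16, with a median of -1.29. B cell markers were higher in 15 of 15, with a median of 2.21, against 21.1% of all tested genes. T cell markers were higher in 8 of 10 and stromal and endothelial markers in 7 of 8. The RNA is of bulk preparations, in which fewer cells of a type and less RNA per cell cannot be told apart.

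Among the B cell genes, Cr2, the complement receptor of follicular and marginal zone B cells, read 9.71, 9.84, 9.62 and 9.58 on the 2-HOBA arrays, against 5.62 at the lowest, 5.69 at the median and 6.28 at the highest on the Hyd/HCTZ arrays. The groups lay far apart, and the difference of 4.13 (SE 0.42, adjusted p = 1.98e-08) is a 17.5-fold change. Ebf1, a transcription factor that establishes the B lineage, read 7.88, 8.37, 7.77 and 7.98 with 2-HOBA, against a lowest of 4.37, a median of 4.91 and a highest of 5.78 with Hyd/HCTZ, 3.25 apart (SE 0.31, adjusted p = 7.31e-09). Fcer2a, the low-affinity IgE receptor, was 14.1-fold higher, Ms4a1 (CD20) 8.65-fold and Pax5, the factor that holds B cell identity, 7.06-fold. Arrays with Ang II alone lay near the 2-HOBA arrays here, with 8.79 to 9.83 for Cr2 and 7.73 to 7.94 for Ebf1. The mean level over the 15 B cell markers was 8.48 to 9.08 on the 2-HOBA arrays, against 6.06 to 7.13 on the Hyd/HCTZ arrays. All 15 were above 5 on every 2-HOBA array and 12 on every Hyd/HCTZ array. Markers of conventional dendritic cells as a class averaged 8.12 to 8.34 with 2-HOBA and 8.78 to 9.01 with Hyd/HCTZ. Despite the label, the B cell markers thus averaged above these dendritic cell markers with 2-HOBA, and below them with Hyd/HCTZ. Shares of cells were not estimated from these levels. How far this shift in B cell RNA bears on the other gene groups was not tested.

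Most T cell and stromal markers were also higher. Lef1, a T cell transcription factor, was at least 2.61-fold higher and Cd3g, a chain of the T cell receptor complex, at least 2.69-fold higher with 2-HOBA. Here "at least" marks a gene with 1 group mean below 5: 5 stood in for that mean, and the smallest fold among the deposited and the quantile-normalized values, each with and without the median removed, is given. Gzma, a granule protease of natural killer and T cells, read 8.08, 8.18, 8.26 and 9.15 with 2-HOBA, against 5.86, 6.79 and 7.07 as lowest, median and highest with Hyd/HCTZ. That made it 4-fold higher (adjusted p = 9.13e-05), and 5 of 12 natural killer markers were called higher. Mean T cell marker level was 5.98 to 6.51 with 2-HOBA and 5.14 to 5.66 with Hyd/HCTZ, and mean stromal marker level was 5.98 to 6.25 and 4.98 to 5.39. Igfbp7, made by endothelial and stromal cells, was 6.25-fold higher, and Sparc, a matrix protein, at least 4.79-fold higher. After quantile normalization 7 T cell and 5 stromal markers were called. Erythroid markers were higher in 3 of 10, led by Alas2, the first enzyme of haem synthesis in red cells (at least 2.93-fold), and in 1 of 10 after quantile normalization. Neutrophil markers gave 0 calls among 12 by limma under either scaling, with 1 at an unadjusted p below 0.05. Still, 11 of the 12 differences were above 0, with a median of 0.58, or 0.27 after quantile normalization. Their mean level was 5.64 to 6.40 with 2-HOBA and 5.25 to 6.36 with Hyd/HCTZ.

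Type 1 dendritic cell genes lay the other way. Xcr1, the chemokine receptor that defines these cells, read 5.59, 4.76, 5.43 and 5.27 with 2-HOBA, against 7.41 at the lowest, 7.62 at the median and 7.82 at the highest with Hyd/HCTZ. The arrays did not overlap and the gene was 4.28-fold lower (difference -2.10, SE 0.26, adjusted p = 4.54e-07). Rab7b, a lysosomal GTPase, was 4.64-fold lower, Clec9a, a receptor for dead cells, 1.9-fold, and Batf3, the factor these cells need to develop, differed by -1.36. Irf8 (-0.35) and Cd24a (0.43) did not pass the test. Of 13 type 2 dendritic cell markers 6 were lower and 2 higher, and of the 11 that passed on the other groups' arrays 5 were lower and 2 higher. Clec4a4, the lectin known as DCIR2, was at least 3.42-fold lower and Cd209a, a DC-SIGN relative, 3.28-fold lower, whereas Ltb (1.05), which lymphocytes also express, and Dtx1 (0.90) were higher. Mean level over the type 1 markers was 6.74 to 7.15 with 2-HOBA and 8.34 to 8.64 with Hyd/HCTZ. Ang II alone averaged 5.05 for Xcr1 and 5.23 for Rab7b.

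Macrophage and monocyte genes were also lower, with a wide spread inside both groups. C1qa, a chain of complement C1q, read 7.39, 6.07, 7.14 and 5.90 with 2-HOBA, against 7.90, 8.97 and 9.60 as lowest, median and highest with Hyd/HCTZ. Replicates 1 and 3 were the high pair and replicates 2 and 4 the low pair, and none reached the Hyd/HCTZ arrays (difference -2.02, SE 0.45, adjusted p = 0.000742). In 6 of the 12 red pulp genes called lower, Mertk, Cd163, Adgre1, Hpgd, Trf and Cd5l, the groups overlapped on at least 1 array. Mean red pulp marker level was 6.22 to 7.47 with 2-HOBA and 7.54 to 9.0 with Hyd/HCTZ. Monocyte markers were lower in 8 of 13, among them Nr4a1, Treml4, Ace and Cx3cr1, which other lists read here also hold. Fcgr4, an activating IgG receptor, differed by -1.75 with overlapping arrays, and S100a4 by -1.50. Plasmacytoid dendritic cell markers had 3 of 11 lower and 2 higher, close to the 23.2% and 21.1% of all tested genes. Both of the higher ones, Spib and Ly6d, are also on the B cell list.

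**Figure D3:**
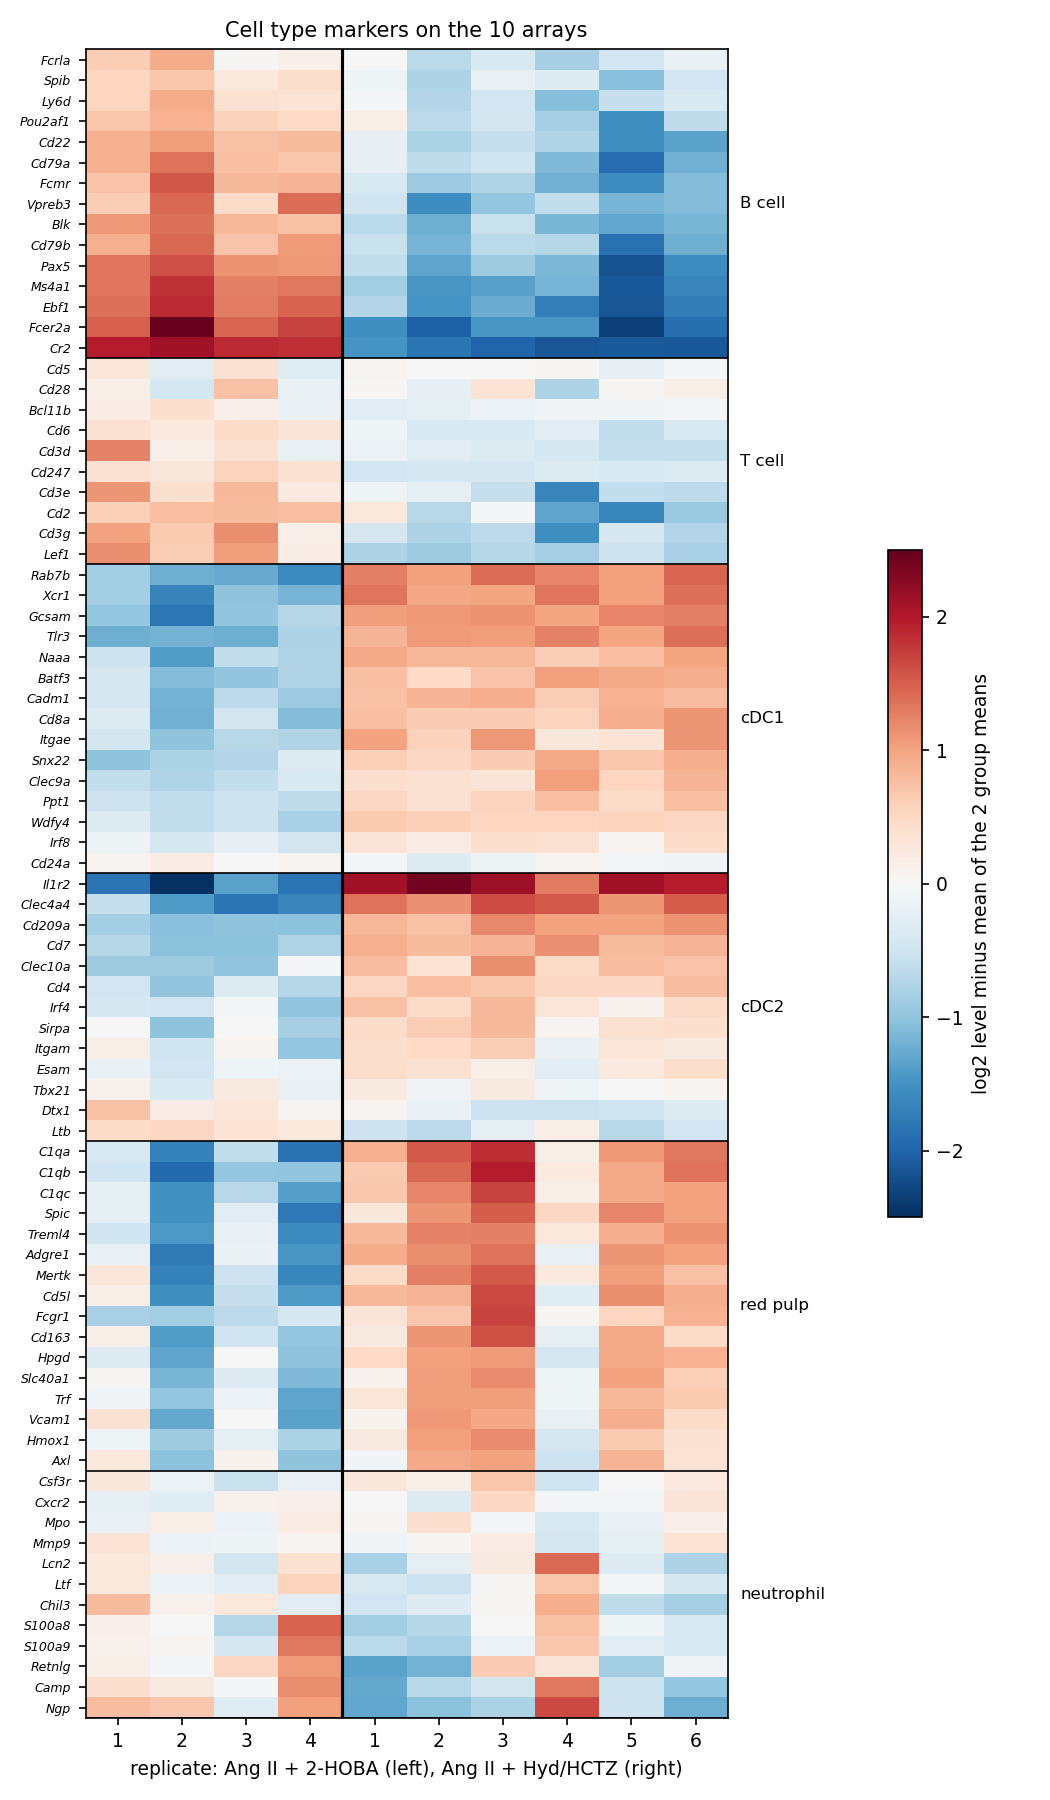
Markers of 6 cell types (rows) on the 4 2-HOBA arrays (left of the black line) and the 6 Hyd/HCTZ arrays (right), coloured by log2 level minus the mean of the 2 group means. B cell and most T cell markers are higher on the left, most type 1 dendritic cell and red pulp markers are higher on the right, and neutrophil markers vary within both groups.

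Immediate early genes, which encode short-lived transcription factors and phosphatases switched on within minutes of a stimulus, were lower with 2-HOBA as a group. Of 24 tested, 20 were called lower and 2 higher, against 23.2% and 21.1% of all tested genes, with a median difference of -1.57. Without Crem, which passed the level threshold through the Hyd/HCTZ arrays, the count was 19 of 23 and the median -1.43. After quantile normalization 18 were lower and 2 higher.

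The nuclear receptor Nr4a3 read 5.45, 4.92, 6.00 and 4.68 with 2-HOBA, against 8.59 at the lowest, 9.27 at the median and 9.38 at the highest with Hyd/HCTZ, a 12.7-fold change (difference -3.67, SE 0.33, adjusted p = 2.25e-09). Egr2, a zinc finger factor induced by receptor signals, read 5.94, 5.96, 6.09 and 5.71 with 2-HOBA, against 8.91, 9.24 and 9.36 as lowest, median and highest with Hyd/HCTZ, and was 8-fold lower (SE 0.23, adjusted p = 9.43e-11). The groups lay far apart for both genes, with a narrower spread for Egr2. Atf3, a stress-induced repressor, read 8.45, 6.30, 8.90 and 5.86 with 2-HOBA, against 9.69, 10.19 and 10.65 as lowest, median and highest with Hyd/HCTZ. Here the 2-HOBA arrays spread widely, with replicates 1 and 3 high as for C1qa, yet all lay below the Hyd/HCTZ arrays (difference -2.58, SE 0.54, adjusted p = 0.000361). Nr4a1 and Nr4a2, the relatives of Nr4a3, were 5.85-fold and 5.93-fold lower, and Fos, Fosb, Jun and Egr1 differed by -1.72, -1.88, -1.30 and -1.74. Ang II alone gave 4.46 to 6.42 for Nr4a3, 5.31 to 6.49 for Egr2 and 5.78 to 9.55 for Atf3.

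Myc, the growth-promoting transcription factor, went against its list. It read 10.25, 9.76, 10.40 and 9.23 with 2-HOBA, against 8.22, 8.48 and 8.55 as lowest, median and highest with Hyd/HCTZ, 3.28-fold higher (SE 0.31, adjusted p = 6.9e-05). No array overlapped. Jund, the constitutive AP-1 member, was 0.50 higher (adjusted p = 0.0155), but its arrays overlapped and tested against 0 it gave 0.25 with an adjusted p of 0.221. Outside the list but alike in direction were Gadd45b, a stress-response scaffold of DNA repair and demethylation (9.83-fold lower), Grasp, a scaffold of receptor trafficking (at least 7.68-fold), and Rrad, a small GTPase (at least 5.5-fold), which entered the test only through the Hyd/HCTZ arrays.

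**Figure D4:**
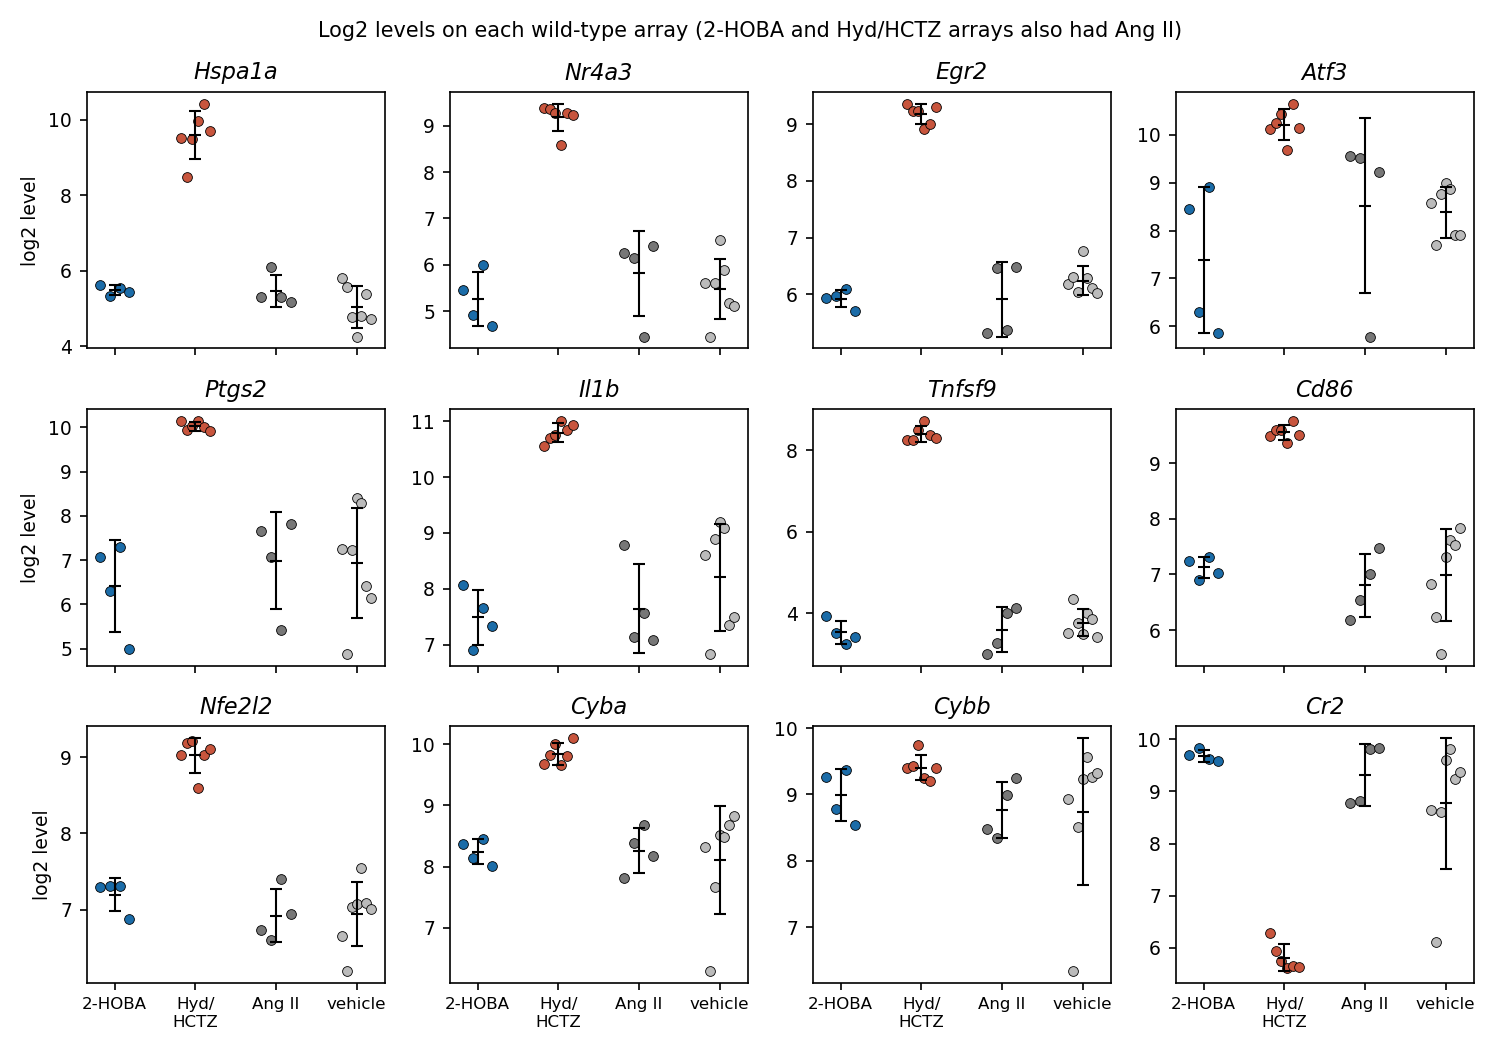
Log2 level of 12 genes on each wild-type array, 1 panel per gene, with groups from left to right 2-HOBA, Hyd/HCTZ, Ang II and vehicle; the first 2 groups also had Ang II, and bars mark the mean ± SD. For 10 of the panels the 2-HOBA points lie below the Hyd/HCTZ points without overlap, Cr2 lies above them and Cybb overlaps.

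Heat shock chaperones, which refold damaged proteins, included a gene with a large difference, while most of the list did not pass the test. Hspa1a, an inducible HSP70, read 5.63, 5.34, 5.55 and 5.44 with 2-HOBA, against 8.49 at the lowest, 9.61 at the median and 10.43 at the highest with Hyd/HCTZ. It was 14.5-fold lower (difference -3.86, SE 0.28, adjusted p = 6.42e-11), and since Hspa1b is nearly identical the probe set may read both. Ang II alone gave 5.18 to 6.10. Of 14 tested chaperones and cochaperones 5 were lower, a share to be read against 23.2%, with a median difference of -0.48. Dnajb1, the HSP40 partner of HSP70, was 3.88-fold lower and Bag3, the nucleotide exchange factor of HSP70, at least 2.27-fold. Dnaja1 passed by little (-0.49, adjusted p = 0.0437) and not after quantile normalization (adjusted p = 0.16). Hspa8, the constitutive HSP70, differed by -0.07.

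Promoter windows of 300 bases, 250 before to 50 after the start of the gene, were read from RefSeq on the GRCm38.p6 build to show what these genes share in sequence. The core of the heat shock element, GAANNTTC or TTCNNGAA on either strand with overlaps counted, was present in 9 of 18 windows of 12 heat shock genes (50%), against 11.8% of 10585 windows of tested genes. Some of these windows overlap: those of Hspd1 and Hspe1 cover nearly the same bases and share their matches, and the pair of Hsph1 windows overlap as well. With overlapping windows merged, 7 of 14 heat shock loci held the core, against 12.3% of 9445 loci of tested genes. The cyclic AMP response element TGACGTCA, the site of the CREB and ATF families, was present in 2 of 25 windows of 19 immediate early genes (8.0%), those of Dusp1 and Maff, against 3.01% of the windows of tested genes. The windows below, 5′ to 3′ on the strand of the gene with the motif in capitals, are those of 3 chaperone genes that were lower with 2-HOBA, of Chordc1, which held 5 overlapping or neighbouring matches and did not pass (-0.00, SE 0.29), and of both immediate early genes with a cyclic AMP response element.
Hspa1a, chr17:34972107-34972406, minus strand: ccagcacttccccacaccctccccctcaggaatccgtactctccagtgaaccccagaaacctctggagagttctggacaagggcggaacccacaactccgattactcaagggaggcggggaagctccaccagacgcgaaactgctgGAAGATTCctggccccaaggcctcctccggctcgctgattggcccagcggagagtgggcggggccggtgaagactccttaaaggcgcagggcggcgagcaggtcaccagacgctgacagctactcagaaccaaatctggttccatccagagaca
Bag3, chr7:128523333-128523632, plus strand: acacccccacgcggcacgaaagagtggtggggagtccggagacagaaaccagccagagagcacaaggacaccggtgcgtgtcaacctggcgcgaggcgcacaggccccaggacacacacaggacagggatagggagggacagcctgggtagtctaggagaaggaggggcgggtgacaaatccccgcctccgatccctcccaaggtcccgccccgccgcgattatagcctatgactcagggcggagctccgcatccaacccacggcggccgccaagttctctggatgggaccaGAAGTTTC
Dnaja1, chr4:40722218-40722517, plus strand: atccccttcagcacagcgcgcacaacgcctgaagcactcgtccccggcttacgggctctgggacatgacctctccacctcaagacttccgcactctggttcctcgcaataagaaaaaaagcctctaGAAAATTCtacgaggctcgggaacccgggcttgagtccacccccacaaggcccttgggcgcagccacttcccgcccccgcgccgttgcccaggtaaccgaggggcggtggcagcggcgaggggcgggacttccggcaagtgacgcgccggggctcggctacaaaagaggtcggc
Chordc1, chr9:18292017-18292316, plus strand: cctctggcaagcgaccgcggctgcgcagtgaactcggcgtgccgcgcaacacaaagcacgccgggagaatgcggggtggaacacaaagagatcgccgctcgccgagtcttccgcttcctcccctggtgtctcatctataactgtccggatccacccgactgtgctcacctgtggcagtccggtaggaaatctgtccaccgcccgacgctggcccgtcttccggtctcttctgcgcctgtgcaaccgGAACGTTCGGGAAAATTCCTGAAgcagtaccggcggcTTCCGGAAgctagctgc
Dusp1, chr17:26508423-26508722, minus strand: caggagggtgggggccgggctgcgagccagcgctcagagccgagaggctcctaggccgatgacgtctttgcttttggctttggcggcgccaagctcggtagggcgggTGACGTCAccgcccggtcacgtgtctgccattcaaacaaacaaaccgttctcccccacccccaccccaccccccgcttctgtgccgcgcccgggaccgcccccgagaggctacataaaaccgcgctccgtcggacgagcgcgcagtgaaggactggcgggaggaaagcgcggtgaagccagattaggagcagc
Maff, chr15:79347270-79347569, plus strand: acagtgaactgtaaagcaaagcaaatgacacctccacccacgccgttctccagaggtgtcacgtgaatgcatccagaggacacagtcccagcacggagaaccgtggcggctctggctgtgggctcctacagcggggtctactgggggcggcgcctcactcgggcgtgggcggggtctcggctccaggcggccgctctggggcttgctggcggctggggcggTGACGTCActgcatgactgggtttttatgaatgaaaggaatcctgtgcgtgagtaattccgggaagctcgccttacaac
The match began 104 bases before the start of Hspa1a, 124 before that of Dnaja1 and 42 after that of Bag3. Dusp1, a phosphatase that shuts off MAP kinases, was 2.43-fold lower (2-HOBA 10.34, 9.04, 10.37 and 8.21, against 10.97, 11.02 and 11.09 as lowest, median and highest with Hyd/HCTZ). Maff, a small Maf factor, was at least 4.04-fold lower. Of the 8 heat shock genes with a match, Hspa1a, Bag3 and Dnaja1 were called lower, and Chordc1, Dnajb4, Hspd1, Hspe1 and Hsph1 did not pass. A match describes the sequence only.

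Cytokine genes were lower with 2-HOBA than with Hyd/HCTZ in most tested cases. Of 12 genes 9 were lower and 1 higher (median -1.20). Among the 10 that passed on the other groups' arrays 7 were lower and 1 higher (median -0.92). The count is not of inflammatory genes alone: the lower ones include Il1rn, the interleukin 1 receptor antagonist (-0.65), Tgfb1 (-1.12) and Ebi3 (-1.44). Il1b, the precursor of interleukin 1 beta, read 8.06, 6.90, 7.66 and 7.33 with 2-HOBA, against 10.56 at the lowest, 10.80 at the median and 11.01 at the highest with Hyd/HCTZ. The gene was 8.33-fold lower (difference -3.06, SE 0.37, adjusted p = 2.31e-07) and its arrays were well separated. Il1r2, the decoy receptor of interleukin 1, was at least 11.02-fold lower. Il12b, a shared subunit of interleukins 12 and 23, read 5.25, 5.00, 4.98 and 4.71 with 2-HOBA, against 6.36, 7.17 and 7.52 as lowest, median and highest with Hyd/HCTZ, at least 3.32-fold lower (adjusted p = 1.9e-08). Tnf, the precursor of tumour necrosis factor, differed less, 1.65-fold lower (adjusted p = 0.00493), with 6.02 to 6.49 on the 2-HOBA arrays and 6.74 to 7.40 on the Hyd/HCTZ arrays. Il1b averaged 7.65 with Ang II alone and 8.21 with vehicle, Il12b 4.64 and 4.95, and Tnf 6.49 and 6.29.

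Il12a, the other subunit of interleukin 12, lay in the opposite direction to Il12b. It read 5.63, 5.69, 4.77 and 5.70 with 2-HOBA, against 3.65, 3.80 and 4.05 as lowest, median and highest with Hyd/HCTZ, at least 1.36-fold higher (adjusted p = 7.76e-08). The Hyd/HCTZ arrays were below the level threshold of 5, as were those of Il6, Il10, Il23a and Ifnb1 in every group, which were not tested. Arrays with Ang II alone read 4.91 to 5.14 for Il12a.

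NF-kB feedback genes and chemokines pointed the same way. Of 14 NF-kB genes 8 were lower (median -0.92), among them Nfkbie, an inhibitor of NF-kB that is also its target, which was 3.39-fold lower (2-HOBA 6.65 to 6.88, Hyd/HCTZ 8.54 to 8.92, adjusted p = 1.88e-07). Tnfaip3 (A20), which ends NF-kB signalling, was 2.52-fold lower, but 2-HOBA replicate 3 at 8.14 reached into the Hyd/HCTZ range, which began at 7.93. The subunits Rela (-0.44), Rel (-0.66) and Nfkb2 (-0.45) did not pass the test, and Relb (-0.91) did. Of 16 chemokines and receptors 12 were lower (median -1.08). Ccl22, a dendritic cell chemokine that draws regulatory T cells, was 4.2-fold lower and Cxcl16, a membrane-bound chemokine, 3.6-fold. Cxcl2, a neutrophil attractant, read 6.31, 4.25, 6.42 and 4.77 with 2-HOBA, against 6.74, 8.09 and 8.48 as lowest, median and highest with Hyd/HCTZ, and here too replicates 1 and 3 were the high ones. Ccr7, the receptor that carries dendritic cells to T cell zones, was 2.08-fold lower (adjusted p = 0.00642). With Ang II alone Nfkbie averaged 6.70, Cxcl16 6.13 and Ccr7 7.80.

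Costimulatory and coinhibitory ligands and receptors were lower in 7 of 12, with a median of -0.77, and in 6 of the 11 that passed on the other groups' arrays. Cd86, the main costimulatory ligand of dendritic cells, read 7.25, 6.91, 7.32 and 7.03 with 2-HOBA, against 9.36, 9.55 and 9.76 as lowest, median and highest with Hyd/HCTZ. The groups were tight and did not overlap, and the gene was 4.52-fold lower (difference -2.18, SE 0.30, adjusted p = 1.65e-06). Tnfsf9, a costimulatory ligand of the TNF family, read 3.92, 3.52, 3.24 and 3.42 with 2-HOBA, against 8.24, 8.34 and 8.72 as lowest, median and highest with Hyd/HCTZ. That is at least 7.94-fold, and the gene entered the test only through the Hyd/HCTZ arrays. Cd80 was 2.56-fold lower and Cd83, a maturation marker, 3.83-fold. Means with Ang II alone were 6.81 for Cd86, 5.51 for Cd80 and 8.53 for Cd83. The coinhibitory receptor Havcr2 (TIM-3) was 5.22-fold lower, and Cd40 (-0.11) and Icosl (-0.26) did not pass.

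Genes that make prostaglandins and leukotrienes, lipid mediators derived from arachidonic acid, were lower in 8 of 10 (median -1.04). Ptgs2 (cyclooxygenase 2), the inducible enzyme of prostaglandin synthesis, read 7.08, 6.31, 7.30 and 5.00 with 2-HOBA, against 9.91 at the lowest, 10.01 at the median and 10.15 at the highest with Hyd/HCTZ. Spread was wide with 2-HOBA and very narrow with Hyd/HCTZ, and the gene was 10.2-fold lower (difference -3.35, SE 0.49, adjusted p = 4.43e-06). Alox5ap, which hands arachidonic acid to lipoxygenase, was 3.13-fold lower and Hpgds, a prostaglandin D synthase, 2.16-fold. Ang II alone averaged 6.99 for Ptgs2, 8.24 for Alox5ap and 5.60 for Hpgds. Ltc4s (0.01) and Ptges3 (-0.31) did not pass. Macrophages also express several of these genes, and the red pulp markers were lower on the same arrays, the part of which was not tested.

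Oxidase and detoxification genes bear on the question the series names. Cybb, the catalytic subunit of NOX2, read 9.26, 8.78, 9.37 and 8.54 with 2-HOBA, against 9.20, 9.40 and 9.75 as lowest, median and highest with Hyd/HCTZ. The arrays overlapped and the difference of -0.16 (SE 0.37, adjusted p = 0.742) changed sign with quantile normalization (0.059). Its membrane partner Cyba read 8.37, 8.15, 8.45 and 8.01 with 2-HOBA, against 9.67, 9.81 and 10.10 as lowest, median and highest with Hyd/HCTZ, and was 2.55-fold lower (SE 0.31, adjusted p = 0.00102). Ncf1, the cytosolic organizer, was 1.39-fold lower (adjusted p = 0.0326), a call lost after quantile normalization (adjusted p = 0.08). Of 6 oxidase subunits these 2 were lower, and Rac2 differed by 0.40 without passing, or was called higher after quantile normalization (0.61, adjusted p = 0.00918). With Ang II alone Cybb averaged 8.77, Cyba 8.26 and Ncf1 7.76.

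Antioxidant genes were lower with 2-HOBA in 9 of 19 (median -0.58), or 9 of the 18 that passed on the other groups' arrays. Nfe2l2 (NRF2), the transcription factor of the oxidant response, read 7.30, 7.31, 7.31 and 6.88 with 2-HOBA, against 8.59, 9.06 and 9.21 as lowest, median and highest with Hyd/HCTZ, a 2.97-fold change (difference -1.57, SE 0.21, adjusted p = 1.22e-06). Among the enzymes, Sod2, the mitochondrial superoxide dismutase, was at least 2.13-fold lower, Cat (catalase) 1.96-fold and Gclc, the rate-limiting enzyme of glutathione synthesis, 2.11-fold. Nfe2l2 averaged 6.93 and Sod2 4.41 with Ang II alone. Sod1 (-0.15), Gss (-0.09) and Keap1 (0.18), the NRF2 inhibitor, did not pass. Hmox1, which degrades haem and is abundant in red pulp macrophages, read 10.12, 9.35, 10.02 and 9.45 with 2-HOBA, against 9.81, 10.74 and 11.41 as lowest, median and highest with Hyd/HCTZ. It overlapped and missed the threshold at -0.75 (adjusted p = 0.0604), but passed without Hyd/HCTZ replicate 4 (-0.91, adjusted p = 0.0224).

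Enzymes that clear lipid peroxides and reactive aldehydes were lower in 11 of 17 (median -0.66), in 10 of the 16 that passed on the other groups' arrays, and in 9 after quantile normalization. Aldh9a1, an aldehyde dehydrogenase, read 5.62, 5.47, 5.64 and 5.58 with 2-HOBA, against 6.91, 7.04 and 7.42 as lowest, median and highest with Hyd/HCTZ. No array overlapped and the gene was 2.38-fold lower (SE 0.20, adjusted p = 2.03e-05). Cbr3, a carbonyl reductase, was at least 2.73-fold lower, Gstp1, a glutathione transferase, 1.72-fold and Park7 (DJ-1) 1.83-fold. Aldh9a1 averaged 5.50 and Cbr3 5.06 with Ang II alone. Aldh2, the mitochondrial aldehyde dehydrogenase, read 6.43 to 6.74 with 2-HOBA and 6.33 to 7.25 with Hyd/HCTZ, with a difference of 0.12 (SE 0.23, adjusted p = 0.709) that turned negative against 0.

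Antigen presentation genes were mixed. Of 12 class II genes 4 were lower and 1 higher (median -0.33). H2-DMa, which loads peptide onto class II, was 2.66-fold lower (2-HOBA 8.18 to 8.44, Hyd/HCTZ 9.78 to 10.22) and Ifi30 (GILT), a lysosomal thiol reductase, 3-fold, whereas Cd74 (-0.07), H2-Ab1 (-0.08) and Ciita (-0.16) did not pass. Marchf1, a ligase that removes class II and CD86 from the surface, was 1.72-fold higher. Of 13 class I genes 5 were lower and 1 higher, and the lower ones were the immunoproteasome subunits Psmb8, Psmb9 and Psmb10 and the activators Psme1 and Psme2. Psmb9 read 9.65, 9.41, 9.72 and 9.34 with 2-HOBA, against 10.87, 11.13 and 11.37 as lowest, median and highest with Hyd/HCTZ. Means with Ang II alone were 8.07 for H2-DMa, 8.29 for Ifi30 and 9.18 for Psmb9. Nlrc5, the class I transactivator, was 1.69-fold higher, with overlap, while B2m (0.12), Tap1 (-0.18) and Tap2 (0.13) did not pass.

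Pattern recognition receptors were lower in 7 of 14 (median -0.57), and in 6 of the 13 that passed on the other groups' arrays. Cd14, the lipopolysaccharide coreceptor, read 5.77, 4.43, 5.75 and 4.61 with 2-HOBA, against 7.53, 8.85 and 9.05 as lowest, median and highest with Hyd/HCTZ, 8.99-fold lower (SE 0.38, adjusted p = 2.72e-07). Tlr3, a sensor of double-stranded RNA and itself a type 1 dendritic cell marker, was 3.83-fold lower and Tlr13, a sensor of bacterial ribosomal RNA in mice, 3.01-fold, while Tlr4 (-0.32), Tlr7 (-0.57) and Tlr9 (-0.00) did not pass. Cd14 averaged 5.39 and Tlr3 5.55 with Ang II alone. Interferon-stimulated genes had calls both ways, in shares close to those of all tested genes. Of 17, 5 were lower and 3 higher, against 23.2% and 21.1% of all tested genes. Their median of -0.04 turned to 0.03 after quantile normalization. The cytosolic RNA sensors differed in direction, with Ddx58 (RIG-I) 2.02-fold higher and Ifih1 (MDA5) 2.24-fold lower with 2-HOBA, neither overlapping between groups.

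Genes of respiration, protein turnover and division formed broad blocks of lower levels with 2-HOBA. Nuclear-encoded subunits of the respiratory chain and ATP synthase were lower in 19 of 29 (median -0.84), and in 16 after quantile normalization. Cycs (cytochrome c) read 7.17, 6.98, 7.10 and 6.91 with 2-HOBA, against 8.80, 9.04 and 9.33 as lowest, median and highest with Hyd/HCTZ, 3.38-fold lower (SE 0.24, adjusted p = 1.23e-06). Ndufa9, a complex I subunit, was 3.41-fold lower. Constitutive and regulatory proteasome subunits were lower in 20 of 28 (median -0.86), 17 after quantile normalization. Psmb6, a catalytic subunit, read 7.55, 7.78, 7.76 and 7.84 with 2-HOBA, against 9.47, 9.58 and 9.73 as lowest, median and highest with Hyd/HCTZ, 3.08-fold lower. Cell cycle and replication genes were lower in 20 of 25 (median -0.86) and in 16 of the 21 that passed on the other groups' arrays. Rrm2, a ribonucleotide reductase subunit, was 3.18-fold lower and Cdk1, the mitotic kinase, at least 2.03-fold. With Ang II alone Cycs averaged 7.03, Ndufa9 5.69, Psmb6 7.32 and Cdk1 4.93.

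Glycolysis and unfolded protein response genes had calls on both sides, and the renin-angiotensin genes were lower. Glycolysis genes were lower in 7 of 16 and higher in 1: Pgam1, phosphoglycerate mutase, was 2.42-fold lower and Hk1, hexokinase, 1.54-fold higher, a call lost without 2-HOBA replicate 4 (adjusted p = 0.0686). Unfolded protein response genes were lower in 8 of 19 and higher in 1. Herpud1, a factor of endoplasmic reticulum degradation, was 3.56-fold lower and Pdia4, a disulfide isomerase of the same compartment, 2.51-fold higher, with 8.67, 8.74, 8.69 and 8.52 on the 2-HOBA arrays, against 7.36, 7.57 and 7.85 as lowest, median and highest on the Hyd/HCTZ arrays. Xbp1 (0.04) and Atf4 (-0.36) did not pass. Of the renin-angiotensin genes 3 were tested and all were lower: Anpep, an aminopeptidase that degrades angiotensins, 5.42-fold, Atp6ap2, the prorenin receptor, 2.67-fold, and Ace, the enzyme that makes Ang II, 1.96-fold (adjusted p = 0.0216). The Ace arrays overlapped, and its call was lost without 2-HOBA replicate 1, 2 or 4 (adjusted p of 0.0502, 0.0657 and 0.109). The receptor gene Agtr1a reached at most 4.51 with 2-HOBA and 4.25 with Hyd/HCTZ and was not tested.

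Small noncoding RNAs, most of them made by RNA polymerase III, were higher with 2-HOBA in 5 of 6 (median 1.49). Rpph1, the RNA of ribonuclease P that trims transfer RNAs, read 12.85, 13.03, 12.64 and 13.08 with 2-HOBA, against 8.59 at the lowest, 9.72 at the median and 10.59 at the highest with Hyd/HCTZ. The groups lay far apart and the RNA was 11.5-fold higher (difference 3.53, SE 0.23, adjusted p = 4.5e-12). Rmrp, the RNA of the related ribonuclease MRP, was 6.07-fold higher and Rn7sk, the RNA that holds the elongation factor P-TEFb inactive, 3.02-fold. Terc, the telomerase RNA, made by polymerase II, differed by 1.38, and Vaultrc5 (-0.52), a vault RNA, did not pass. Ang II alone read 12.68 to 13.28 for Rpph1 and 12.95 to 13.21 for Rn7sk.

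**Figure D5:**
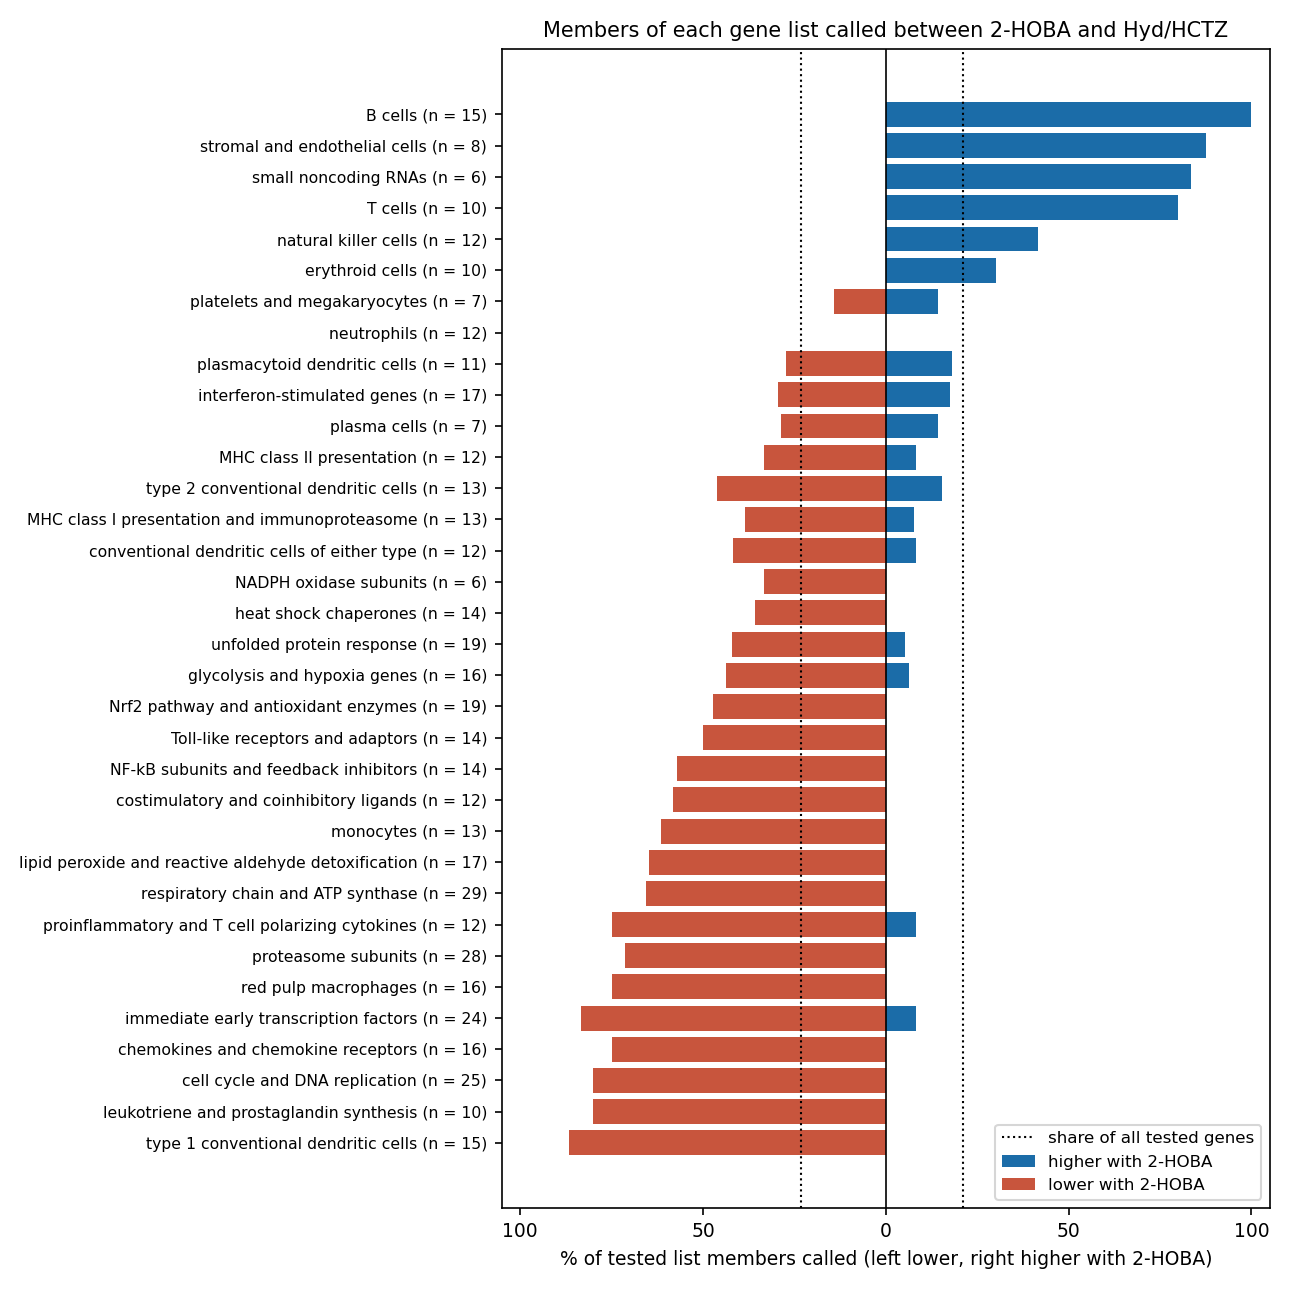
Share of the tested members of each gene list called lower (left) or higher (right) with 2-HOBA relative to the median difference, in percent, with dotted lines at the shares over all tested genes. B cell markers (15 of 15) and small noncoding RNAs (5 of 6) extend to the right, type 1 dendritic cell markers (13 of 15), immediate early genes (20 of 24) and the eicosanoid list (8 of 10) to the left.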

How the data were processed

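RNA was measured on 28 Affymetrix arrays, 1 table of 35556 probe sets. The deposited values are log2 levels that the authors made by RMA in Partek 6.6, per the submitters' processing notes, and the RMA version, background settings, annotation build and scan batches are not given in the sources used here. Array medians were lower with 2-HOBA than with Hyd/HCTZ over the tested genes but higher over all probe sets, and single genes were read relative to the median difference of the tested genes. Values ran from 0.90 to 14.34, and signal over background beyond RMA is unknown, so precision rests on how many arrays each group has.

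Probe sets with exactly 1 symbol (21789, against 1621 with several and 12146 with none) were kept, and the probe set with the highest mean stood for a gene, giving 19938 genes. Genes above 5 on 3 or more arrays were tested with limma 3.58.1 in R 4.3.3 on 6 group means over all 28 arrays, with Benjamini-Hochberg adjustment and an adjusted p below 0.05 as a call. A gene list was described by its counts and its median. Where 1 group mean was below 5, 5 took its place and the smallest fold over the scalings was given. The procedure was tested on simulated data. No 2 arrays were duplicates. All sample columns were mapped.

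The groups share replicate numbers, but same-numbered arrays deviated with correlations of -0.06 to 0.29 over 4 pairs, and the numbers were not treated as pairs. Of the 4 2-HOBA arrays, 2 correlated best with the Hyd/HCTZ array of their own number. Genes were named by rule: 12 genes of oxidase, cytokine, costimulation and oxidant response; the 10 largest differences each way called under both scalings without overlap; the 4 largest each way with 1 group mean below 5; and, per list, the 3 called members of smallest p with up to 2 against the majority. Other list members are named outside this rule, both called ones and ones that did not pass. These others were not part of the outlier and processing checks of the genes named by rule. The comparison, the gene lists and the rules were chosen with earlier results of these data known. Alternatives covered scaling, the level filter, the arrays entering the fit, variance settings, probe set choice, a fold threshold and the replicate block. Each of the 10 compared arrays, and the vehicle array of replicate 2, was also left out in turn.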

Additional observations from a re-analysis of the deposited data

Results flagged for a closer look

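Within their group of 4 or 6 arrays, 22 values lay far from the others by Dixon's test. These 22, among 264 groups of the 132 genes named by rule, are to be set against about 1 in 20 groups that chance flags. On Hyd/HCTZ replicate 4, 11 genes stood apart. Low there were Tnf (6.74), Ccr7 (8.32), Nfe2l2 (8.59), Nr4a3 (8.59), Nr4a2 (8.84), Crem (7.01), Ifih1 (6.35), Ace (5.64), Fcgr4 (5.97) and Cd3e (4.79), and Sparc was high (6.46). Without that array 4559 genes were called. On 2-HOBA replicate 2, Cd80 (5.12), S100a4 (8.59) and Gata2 (3.97) were low and Ms4a1 (10.04) high. On 2-HOBA replicate 4, Nfe2l2 (6.88) was low, and Tlr3 (5.94) and Rn7sk (13.21) were high. Single genes stood apart elsewhere: Il12a (4.77) was low on 2-HOBA replicate 3, Epb42 (4.35) high on 2-HOBA replicate 1, Nfkbib (8.55) low on Hyd/HCTZ replicate 1 and Itgax (9.29) low on Hyd/HCTZ replicate 5. Except for Ace, Fcgr4 and Gata2, these log2 levels lay outside the range of the other group's arrays.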

How the results depend on the processing

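The 4631 calls, 2202 higher and 2429 lower with 2-HOBA, moved by over 1.5 times in at least 1 count under 4 settings. Tested against 0, 1016 were higher and 3758 lower. With no level filter, 1160 were higher and 4750 lower, among 19938 genes. With a filter at 7, 1799 of 3945 were called, 917 higher and 882 lower. With array weights 3314 were higher. Other settings gave 3610 to 6557 calls, the most on the 10 arrays alone, and the level filter on the other groups' 18 arrays, chosen after seeing the data, gave 4287. Leaving out 1 of the 10 compared arrays gave 3738 to 4559 calls, 1711 to 2161 higher and 2027 to 2398 lower. Leaving out the vehicle array of replicate 2 gave 5548, 2726 higher and 2822 lower. The replicate block, for numbers not shown to pair the arrays, gave 3744 calls, 1586 higher and 2158 lower. Of 132 genes named by rule, 102 were tested under all 25 settings, and 88 of them kept direction and side of the threshold throughout. The other 30 were left out by at least 1 level filter, and 23 of them kept both wherever they were tested. Aldh2 turned to -0.14 against 0 and -0.27 with no filter, and Cybb to 0.059 after quantile normalization and 0.10 with the filter at 7, none of them past the threshold. Calls of Ncf1, Ace, Haao, Slc4a1, Epb42, Jchain, Gzmb, Hk1 and Prdm1 were lost without at least 1 single array, and the cause was not tested. Without the vehicle array of replicate 2 Hmox1 passed (adjusted p = 0.0371). Medians of 6 of the 36 lists changed sign under some setting, the interferon-stimulated, plasma cell, platelet, mast cell, oxidase and renin-angiotensin lists.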

Other observations

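Besides the B cell list, several of the genes with the widest positive differences are known from lymphocytes. Ralgps2 (7.41-fold higher with 2-HOBA), Ikzf3 (6.11-fold), the lymphoid transcription factor Aiolos, and Cmah (6.07-fold), which hydroxylates sialic acid, were called without overlap, as were Gimap9 (at least 3.78-fold), a lymphocyte GTPase, and Cd55 (at least 8.43-fold), a complement regulator. Ikzf3 read 8.08, 8.48, 8.01 and 8.33 with 2-HOBA, against 5.25 at the lowest, 5.71 at the median and 6.87 at the highest with Hyd/HCTZ. Trdn (8.56-fold), triadin of the sarcoplasmic reticulum, and Coch (at least 4.92-fold), an extracellular matrix protein, were also higher. Trdn read 7.67, 8.45, 7.90 and 8.29 with 2-HOBA, against 4.66, 5.34 and 5.71 as lowest, median and highest with Hyd/HCTZ.

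Small marker lists had few calls, to be read against 21.1% higher and 23.2% lower of all tested genes. Plasma cell markers had 1 of 7 higher and 2 lower, with Slamf7 at -1.14 (adjusted p = 0.000472 by limma) and Jchain, the joining chain of secreted IgM and IgA, at 0.98 with overlapping arrays. Platelet markers had 1 of 7 higher and 1 lower. Of 3 mast cell and basophil markers, Kit, the stem cell factor receptor, was 3.1-fold lower (2-HOBA 7.55, 6.58, 7.10 and 6.93, against 8.85, 8.92 and 8.98 as lowest, median and highest with Hyd/HCTZ), and Gata2 was higher at 0.77, a call lost after quantile normalization (adjusted p = 0.309).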
